A study of Danio rerio with 1536 samples.

Results

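The genes urp1, urp2, pkd2l1 and tal2 were followed across single cells of the adult zebrafish spinal cord. These 4 genes, of 32519 gene rows in the count tables, were chosen because they are known genes of cerebrospinal-fluid-contacting neurons (CSF-cNs) in zebrafish, and they were found by their Ensembl identifiers ENSDARG00000093493 (urp1), ENSDARG00000067781 (urp2), ENSDARG00000022503 (pkd2l1) and ENSDARG00000042041 (tal2). Cells came from 7-week-old fish of either sex and from a pair of transgenic lines. In Tg(isl1a:GFP), the promoter of isl1a drives GFP in motoneurons (MNs) and in other interneurons (INs), and in Tg(chx10:GFP), GFP marks V2a INs. For each plate, 6 to 10 spinal cords were pooled and dissociated, and single cells positive for GFP and for the nuclear stain DRAQ5 were sorted into 384 wells and sequenced with Smart-seq2. There were 2 isl1a:GFP plates and 2 chx10:GFP plates.

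The study compared MNs and V2a INs. It also reported isl1a:GFP clusters with CSF-cN markers, and kept only the cells with MN markers for its later steps. The wells of a plate share 1 pool of fish, so that the plate was the replicate (n = 2 for each line) and wells were used only for description. Nothing in the labels says how the pools differed, and p-values below measure the spread between these plates only. Counts of isl1a:GFP plate 1 were deposited together with those of both chx10:GFP plates, and those of isl1a:GFP plate 2 apart. What this split stands for is not given, and it cannot be told apart from other differences between the isl1a:GFP plates.

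CSF-cNs line the central canal of the spinal cord, where each extends an apical process with a cilium and microvilli into the cerebrospinal fluid, and most are GABAergic. In zebrafish they sense the bending of the body axis and chemical cues in the fluid, and the channel Pkd2l1 is needed for this response. Their peptides Urp1 and Urp2, of the urotensin II family, act on muscle through a urotensin receptor and help to keep the body axis straight. In zebrafish larvae, ventral CSF-cNs are known to express urp1 and urp2, and dorsal CSF-cNs somatostatin. Tal2 is a basic helix-loop-helix transcription factor, related to Tal1, of GABAergic neurons in the midbrain and spinal cord.

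A well passed with 2000 to 9000 gene rows detected and at most 30% of its reads on ERCC spike-in sequences. Of 384 wells each, 259 and 363 passed on isl1a:GFP plates 1 and 2 (622 wells), against 300 and 325 on chx10:GFP plates 1 and 2 (625 wells). The median of reads on genes per passing well was 403750 and 436780 on the isl1a:GFP plates, against 324160 and 367900 on the chx10:GFP plates. The labels name the isl1a:GFP cells motoneurons and the others V2a INs. The MN gene MNX1 had 64.1 and 215 CPM in the summed isl1a:GFP wells, against 1.14 and 1.16 CPM in the summed chx10:GFP wells. Levels are CPM, the reads of a gene per 1000000 reads on genes in the same well. Smart-seq2 libraries have no molecular identifiers, so that reads and not molecules were counted. Intervals on shares of wells cover the binomial error of counting wells only, and not the spread between pools.

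The peptide genes split the isl1a:GFP wells into a large group at or near 0 and a smaller group at high CPM. On isl1a:GFP plate 1, urp1 ranged from 0 to 83750 CPM with a median of 5.04 CPM, and on isl1a:GFP plate 2 from 0 to 67491 CPM with a median of 5.90 CPM. On the chx10:GFP plates, the median was 0 and the highest wells had 81.0 and 181 CPM. A well was called high for urp1, urp2 or pkd2l1 at 1000 CPM or more, limits that were set with earlier averages of these plates known. By this limit, 71 of 259 and 83 of 363 isl1a:GFP wells were high for urp1, and no chx10:GFP well was. Almost no wells lay in between, since 0 wells of plate 1 and 3 wells of plate 2 had 100 to 1000 CPM of urp1. The wells nearest the limit had 1818 CPM above it and 42.2 CPM below it on plate 1, and 6387 CPM above it and 936 CPM below it on plate 2.

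For urp2, levels ranged from 0 to 135090 CPM on isl1a:GFP plate 1 (median 3.79 CPM) and from 0 to 199180 CPM on isl1a:GFP plate 2 (median 7.19 CPM), against a highest well of 25 and 86.9 CPM on the chx10:GFP plates. High wells numbered 67 and 81 on the isl1a:GFP plates and 0 on the chx10:GFP plates. The gap at the limit was narrower than for urp1, with wells at 1225 and 1346 CPM just above it and at 961 and 969 CPM just below it. Of the 4 genes, urp2 had the widest range among its own high wells on both plates, 110-fold and 148-fold, with a coefficient of variation (CV, the SD over the mean) of 125% and 92.4%. The high wells of urp1 spanned 46.1-fold and 10.6-fold, with a CV of 65.0% and 48.5%. Median levels in these wells were 17139 and 25330 CPM for urp1, and 13338 and 24061 CPM for urp2.

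The channel gene pkd2l1 had the same split and the narrowest range among high wells. It reached 24442 and 23818 CPM on isl1a:GFP plates 1 and 2, where its medians were 2.43 and 3.19 CPM, against 128 and 69.6 CPM at most on the chx10:GFP plates. The 71 and 84 wells that were high for pkd2l1 lay between 4314 and 24442 CPM (median 12129 CPM) on plate 1 and between 3116 and 23818 CPM (median 12041 CPM) on plate 2. These ranges were 5.67-fold and 7.64-fold, with a CV of 37.6% and 39.3%. The nearest wells below the limit had 744 and 307 CPM.

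The transcription factor gene tal2 was lower, and its limit for a high well was set at 100 CPM. Its median over all passing wells was 0 on each of the 4 plates, and its highest wells had 2248 and 2550 CPM on the isl1a:GFP plates, against 257 and 68.6 CPM on the chx10:GFP plates. There were 75 and 89 high wells on the isl1a:GFP plates, with medians of 785 and 718 CPM and a CV of 50.7% and 57.8%, and 5 and 0 high wells on the chx10:GFP plates. The 5 wells of chx10:GFP plate 1 had 119 to 257 CPM, so that tal2 was the single gene of the 4 for which a chx10:GFP well passed its limit. Near its limit tal2 was continuous, with wells at 128 and 110 CPM above it and at 74.0 and 99.5 CPM below it on the isl1a:GFP plates.

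**Figure D1:**
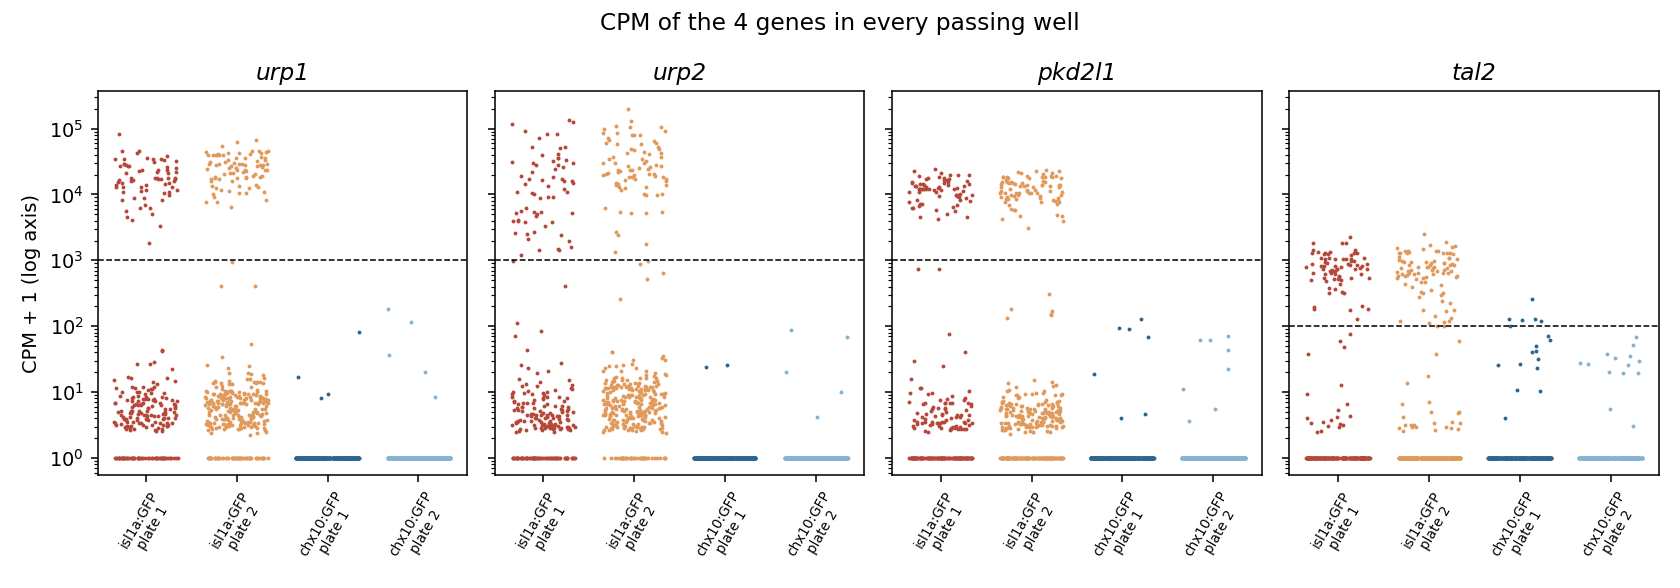
CPM + 1 (log axis) of urp1, urp2, pkd2l1 and tal2 in every passing well, with isl1a:GFP plates 1 and 2 in red and orange and chx10:GFP plates 1 and 2 in dark and light blue. Each point is 1 well, the dashed lines are the limits of 1000 CPM (100 CPM for tal2), and isl1a:GFP wells form a high group that the chx10:GFP plates lack, apart from 5 wells of plate 1 above the limit for tal2.

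Wells that were high for one of the genes were mostly high for all of them. Of the 622 isl1a:GFP wells, 141 were high for all 4 genes (66 and 75 on plates 1 and 2). A further 6 were high for urp1, urp2 and pkd2l1 without tal2, 7 for urp1, pkd2l1 and tal2 without urp2, and 1 for urp2, pkd2l1 and tal2 without urp1. No well was high for pkd2l1 alone, and 15 wells were high for tal2 alone. The wells that were high for urp1, urp2 or pkd2l1, called high wells from here on, were 71 of 259 on isl1a:GFP plate 1 (27.4%, 95% exact Clopper-Pearson interval 22.1% to 33.3%) and 84 of 363 on isl1a:GFP plate 2 (23.1%, 18.9% to 27.8%). On the chx10:GFP plates they were 0 of 300 and 0 of 325, with upper bounds of 1.22% and 1.13%. These shares are shares of sorted wells, and how the sort weighted cell types was not tested.

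The wells high for a gene held at least 99.6% of the reads of that gene on each isl1a:GFP plate. In the 155 high wells the 4 genes together took a median of 4.42% of a well's gene reads on plate 1 (range 0.899% to 18.6%) and 6.80% on plate 2 (1.64% to 25%), and urp1 and urp2 alone took 2.99% and 5.52%. A rise of one of these genes therefore lowers the CPM of the others in the same well. For this reason rank correlations were also computed with the reads of the 4 genes left out of the total, a way chosen after the data had been seen.

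Among high wells, the peptide genes varied together and tal2 varied apart from them. Spearman's rho between urp1 and urp2 was 0.62 over 71 wells of plate 1 and 0.63 over 84 wells of plate 2 (0.64 and 0.68 with the 4 genes left out of the total). Between urp2 and pkd2l1 it was 0.45 and 0.20 (0.52 and 0.31), and between urp1 and pkd2l1 0.34 and 0.05 (0.41 and 0.17). For tal2, rho was -0.14 and -0.15 with urp1 (-0.10 and -0.10), -0.19 and -0.27 with urp2 (-0.12 and -0.19), and -0.01 and 0.08 with pkd2l1. Wells of a plate share its pool, its library preparation and, within a well, the total, so that these values are a description and carry no p.

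The ratio of urp1 to urp2 reads differed widely between single cells. The ratio is one of read counts and was not scaled by transcript length, since no lengths of the build of the files were at hand, so that it ranks wells and does not say which transcript was the more abundant. In the 71 high wells of plate 1, log2 of (urp1 reads + 1) over (urp2 reads + 1) was 0.82 ± 2.06 (mean ± SD over wells), with a median of 0.56, quartiles of -0.50 and 1.66, and a range of -2.81 to 9.49. In the 84 high wells of plate 2 it was 0.03 ± 1.31, with a median of -0.11, quartiles of -0.82 and 0.70, and a range of -2.53 to 4.98. The plates thus overlapped almost fully, and the difference between their medians was smaller than the SD over wells of either plate.

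Wells with more urp1 than urp2 reads were 48 of 71 on plate 1 and 40 of 84 on plate 2. A difference of less than 2-fold was found in 29 wells (40.8%) and 51 wells (60.7%). At least 4-fold more urp1 was found in 12 and 6 wells, and at least 4-fold more urp2 in 3 and 2 wells. Summed over the high wells, the ratio was 0.883 and 0.691, so that on plate 1 the sum had more urp2 while the median well had more urp1. The highest wells had 83750 and 67491 CPM of urp1 and 135090 and 199180 CPM of urp2.

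Counting error was small beside this spread. In wells high for both genes, the SD of the log2 ratio was 1.46 over 67 wells and 1.1 over 80 wells, whereas the SD expected from the read counts of a well was 0.029 and 0.020 at the median and 0.081 and 0.076 at most. Amplification in a well before sequencing is not part of this error. The log2 ratio had a rho of 0.01 and -0.20 with the total reads of a well, and of -0.25 and -0.25 with the number of gene rows detected.

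The extremes lay on the side of urp1. Well J1 of plate 1 had 2153 reads of urp1 and 2 of urp2, beside 2292 of pkd2l1 and 328 of tal2, which is a log2 ratio of 9.49. In well I7 of the same plate there were 4020 reads of urp1 and 20 of urp2, and in well G19 7392 and 176. With so few urp2 reads, J1 was, for urp2, within the range of the wells that were not high for any of the 4 genes, which reached 10 reads on plate 1, while its pkd2l1, at 4314 CPM, was the lowest of the wells of plate 1 high for that gene. On plate 2 the highest ratio was in well J24, with 9589 reads of urp1 and 302 of urp2. At the other end, well K6 of plate 1 had 4529 reads of urp1 and 31782 of urp2 (log2 ratio -2.81), and well P7 of plate 2 had 9107 and 52744 (-2.53). No high well lacked urp1 in the way that J1 and I7 lacked urp2.

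**Figure D2:**
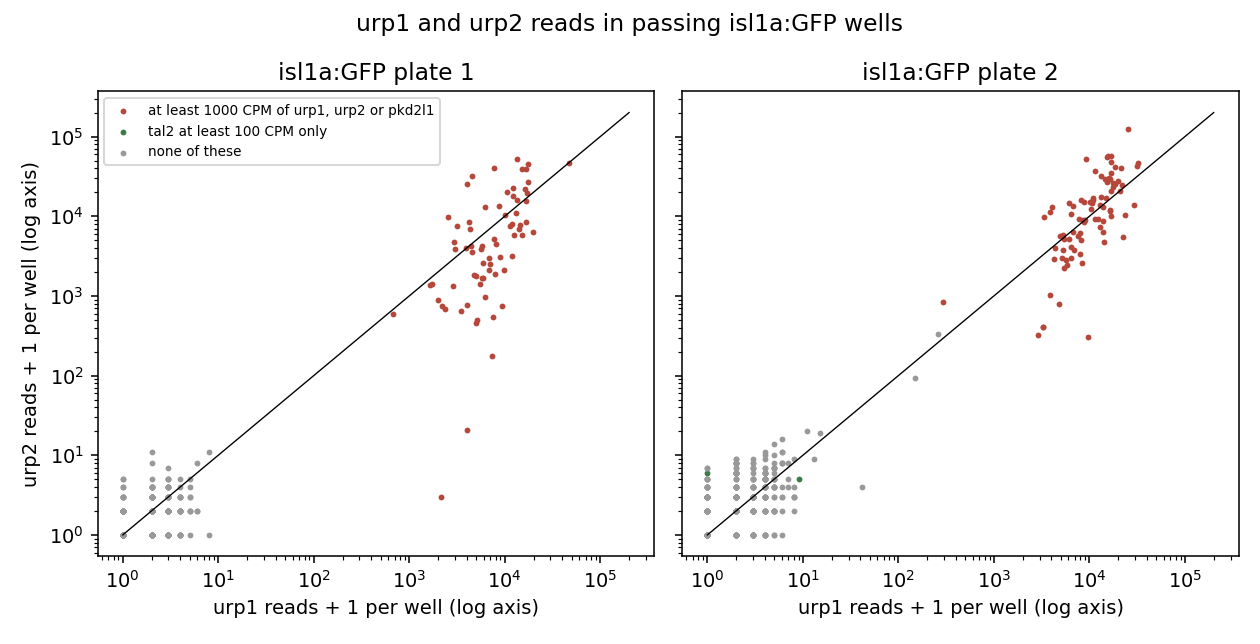
Reads of urp2 + 1 against reads of urp1 + 1 per passing isl1a:GFP well (log axes), for plate 1 on the left and plate 2 on the right. The line marks equal reads, red points are the 71 and 84 high wells, green points wells above the limit for tal2 only, and grey points the other wells, most of which have fewer than 10 reads of each gene.

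**Figure D3:**
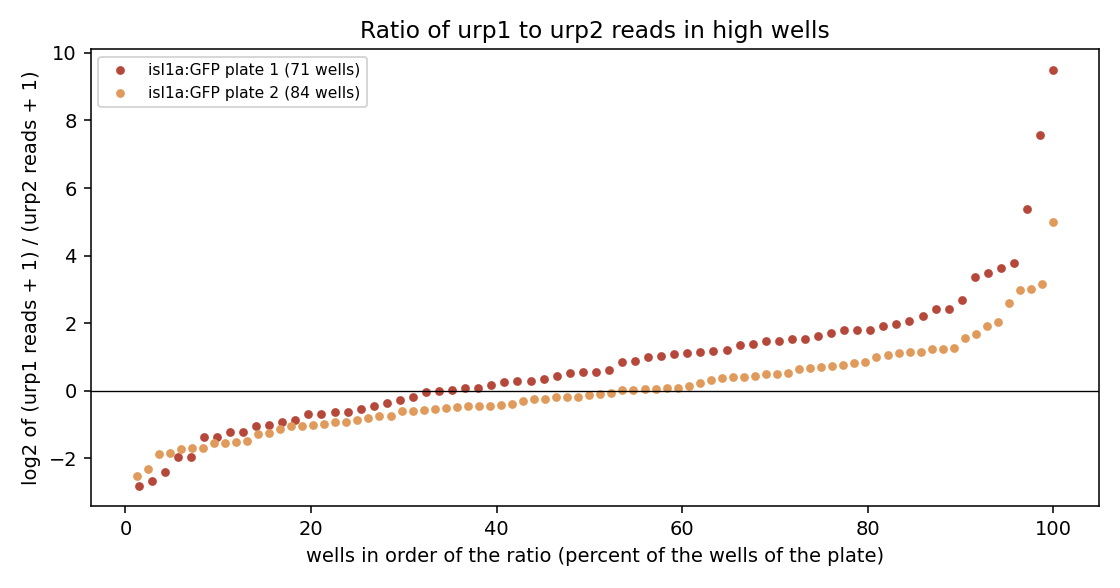
log2 of the ratio of urp1 to urp2 reads (1 read added to each) in the high wells of isl1a:GFP plate 1 (red, 71 wells) and isl1a:GFP plate 2 (orange, 84 wells), in order of the ratio within the plate. Both plates run from about -2.81 and -2.53 through 0, and 3 wells of plate 1 and 1 well of plate 2 stand above the rest at the upper end.

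Summed per plate, all 4 genes were higher in isl1a:GFP than in chx10:GFP cells. For urp1 the sums were 5872 and 6081 CPM (615737 and 984967 reads) on the isl1a:GFP plates, against 0.114 and 1.08 CPM (11 and 129 reads) on the chx10:GFP plates. For urp2 they were 6646 and 8801 CPM, against 0.114 and 0.428 CPM. The levels of pkd2l1 were 3542 and 2926 CPM, against 1.37 and 0.596 CPM, and those of tal2 249 and 198 CPM, against 3.41 and 1.15 CPM. No chx10:GFP plate came near an isl1a:GFP plate for any of these genes.

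In edgeR's quasi-likelihood test over all genes, the log2 difference between isl1a:GFP and chx10:GFP was 13.29 for urp1 (standard error 1.25, adjusted p = 0.00675) and 14.80 for urp2 (0.87, adjusted p = 0.00206). It was 11.72 for pkd2l1 (0.61, adjusted p = 0.00157) and 6.65 for tal2 (0.61, adjusted p = 0.00666). Thus 4 of 4 genes were called higher, where 500 of 23956 rows tested (2.09%) were called higher over the whole table, 228 (0.952%) lower and 728 (3.04%) in either direction. The 4 genes were chosen with earlier results of these data known, so that this count is a description. The 4 calls were kept in each alternative fit, also with either plate of a line left out. Fewer cells of a type and less RNA per cell cannot be told apart in such sums, and here 24.9% of the passing isl1a:GFP wells were high and 0 chx10:GFP wells.

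Low counts of the peptide and channel genes were found in most wells of the isl1a:GFP plates that were not high. In the 183 and 269 passing wells that were not high for any of the 4 genes, at least 1 read of urp1 was present in 71.0% and 80.7%, of urp2 in 67.2% and 86.2%, of pkd2l1 in 45.4% and 59.9%, and of tal2 in 10.4% and 8.55%. In the chx10:GFP wells that were not high, the same shares were 1.36% and 1.54% for urp1, 0.678% and 1.54% for urp2, 2.37% and 2.46% for pkd2l1, and 4.41% and 4.31% for tal2. The median depths were 403750 and 440690 reads in these isl1a:GFP wells, against 325080 and 367900 reads in the chx10:GFP wells. The shares for urp1, urp2 and pkd2l1 therefore separated the lines by far, and those of tal2 by much less.

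The number of reads behind these shares was small. The median was 1 and 2 reads of urp1 and 1 and 2 reads of urp2 on isl1a:GFP plates 1 and 2, 0 and 1 read of pkd2l1, and 0 of tal2. As means, the wells had 4.32 and 8.14 CPM of urp1, 4.32 and 9.57 CPM of urp2, 6.56 and 4.82 CPM of pkd2l1, and 1.31 and 0.808 CPM of tal2. These are 0.0784% and 0.133% of the mean over all passing wells of the plate for urp1, 0.0684% and 0.113% for urp2, 0.195% and 0.165% for pkd2l1, and 0.540% and 0.411% for tal2. In the chx10:GFP wells the means were 0.381 and 1.1 CPM of urp1, 0.162 and 0.575 CPM of urp2, 1.36 and 0.834 CPM of pkd2l1, and 1.65 and 1.20 CPM of tal2.

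The summed reads of these wells were set against those of the high wells. The summed ratio of urp1 to urp2 was 0.883 and 0.691 in the high wells, against 1.08 and 0.850 in the wells that were not high. That of pkd2l1 to urp1 was 0.603 and 0.481, against 0.882 and 0.524. The ratio of tal2 to urp1 was 0.0416 and 0.0298, against 0.353 and 0.0895. Of the 225 reads of pkd2l1 in the wells of plate 1 that were not high, 73 lay in 1 well, J10, so that these ratios describe sums and not single wells.

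In the passing wells that were not high, the low counts had little linear relation to the number of reads in a well. Single wells of up to 330 reads of a gene enter these values. Across these wells, Pearson's r between the reads of the gene and the total was 0.03 and 0.09 for urp1, 0.09 and 0.09 for urp2, and -0.18 and 0.01 for pkd2l1 (183 and 269 wells, each set from 1 plate). On isl1a:GFP plate 1, 114 wells failed because over 30% of their reads were ERCC, and these held a median of 538 gene reads. In them urp1 averaged 0.465 reads per well and was present in 36.0%, urp2 0.535 reads in 39.5%, pkd2l1 0.333 reads in 27.2%, and tal2 0.0175 reads in 1.75%. In the 21 failing wells of plate 2, with a median of 43369 gene reads, 81.0%, 90.5% and 81.0% had a read of urp1, urp2 and pkd2l1. Wells with almost no gene reads of their own thus held such counts as well, at 0.333 to 0.535 reads per gene on plate 1, against means of 1.23 to 1.39 reads in its passing wells. Where these reads came from was not tested.

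The low counts were set against the number of high wells nearby. The median sum of urp1, urp2 and pkd2l1 reads on plate 1 was 3 reads in the 58 wells with 0 high neighbours, 3 in the 77 wells with 1, 3 in the 40 wells with 2 and 7 in the 8 wells with 3. On plate 2 the medians were 4, 5, 6 and 5 reads, over 90, 125, 44 and 9 wells. In rows with more than the median number of high wells the median was 3 reads on plate 1 and 6 on plate 2, against 3 and 4 in the other rows, and in such columns it was 4 and 6 reads, against 3 and 4. Pearson's r between this sum and the number of high wells in the same row was 0.07 on plate 1 and -0.01 on plate 2, and for the same column 0.05 and -0.05, with 1 well of 703 reads among those of plate 2. On plate 2 the medians were thus higher in rows and columns with more high wells while r was near 0, and these differences were not tested.

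Single wells carried much of the sum. On plate 2 the 4 wells with the most reads held 40.5% of all urp1, urp2 and pkd2l1 reads of wells that were not high, and on plate 1 18.6%. Well N24 of plate 2 had 258, 330 and 115 reads of urp1, urp2 and pkd2l1, and well K24 147, 92 and 48, at 7639 gene rows detected and 5495 CPM of TPH2, the enzyme of serotonin synthesis in neurons. Both lie in column 24. Wells F24 and K24 of plate 1, among the 4 highest of that plate, lie in column 24 too. They had 2, 2 and 23 reads (F24) and 7, 10 and 1 reads (K24) of urp1, urp2 and pkd2l1. Without that column, a comparison chosen after the data had been seen, the mean over both isl1a:GFP plates was 4.76 CPM for urp1 and 5.48 CPM for urp2, against 6.23 and 6.94 CPM with it. Well J10 of plate 1 had 0, 1 and 73 reads, which is 744 CPM of pkd2l1 with almost no peptide reads, and wells G11 and K7 of plate 2 had 55 and 41 reads of pkd2l1 with at most 7 of either peptide gene.

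To set both lines at 1 depth each, wells were thinned to 274451 reads (isl1a:GFP, 63 of 622 wells left out) and 208925 reads (chx10:GFP, 63 of 625 left out). The depth was not made equal between the lines, and isl1a:GFP wells stayed the deeper ones. Over all passing wells, high wells included, urp1 was then found in 67.9% and 74.0% of isl1a:GFP wells, against 1.09% and 1.39% of chx10:GFP wells. Without thinning the shares were 79.2% and 85.4%, against 1.33% and 1.54%. For urp2 they were 66.5% and 80.6%, against 0.364% and 1.39% (unthinned 76.1% and 89.3%, against 0.667% and 1.54%). The share of wells with pkd2l1 was 56.7% and 58.2%, against 2.18% and 2.09% (60.2% and 69.1%, against 2.33% and 2.46%), and with tal2 38.4% and 30.4%, against 5.45% and 3.48% (36.7% and 31.7%, against 6.00% and 4.31%). The share of isl1a:GFP wells with a read was thus far above the share of high wells, 27.4% and 23.1%, for urp1, urp2 and pkd2l1, and nearer to it for tal2.

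**Figure D4:**
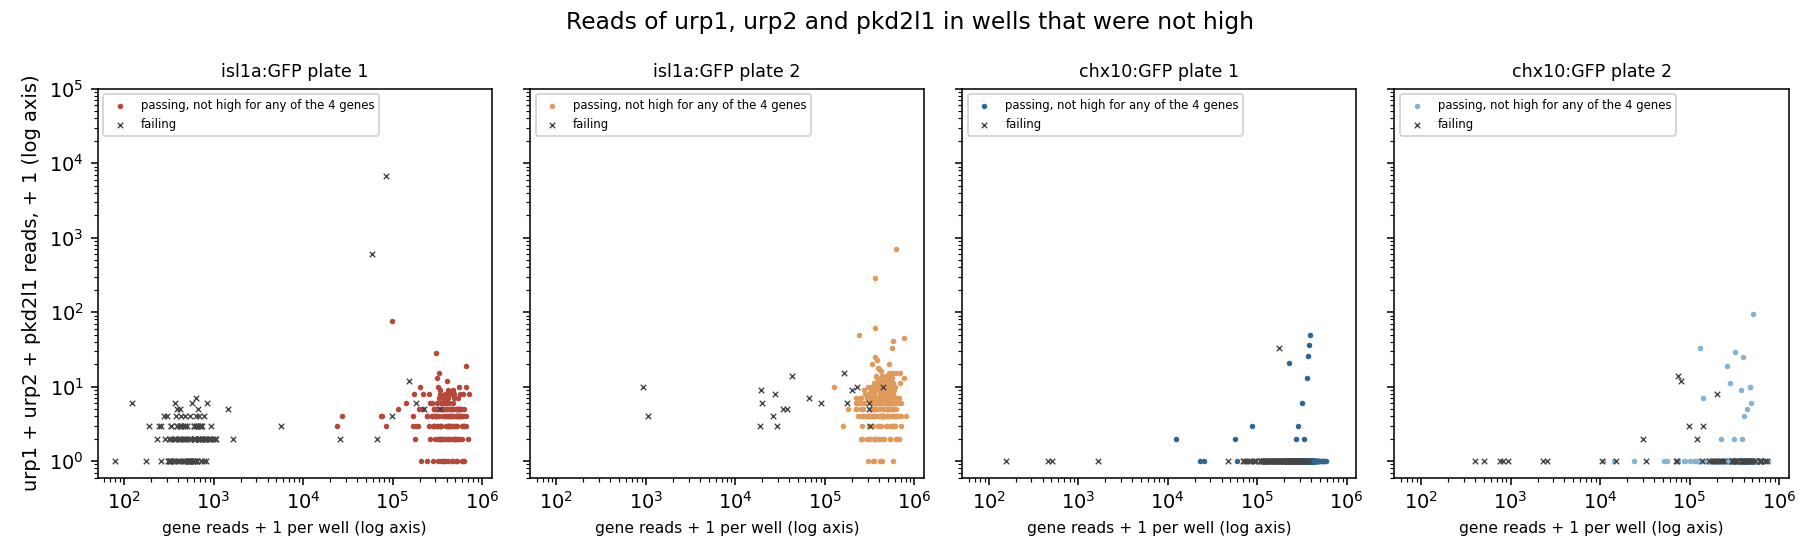
Summed reads of urp1, urp2 and pkd2l1 (+ 1, log axis) against gene reads (+ 1, log axis) in each well that was not high for any of the 4 genes (coloured points, passing) and in failing wells (crosses), for isl1a:GFP plates 1 and 2 and chx10:GFP plates 1 and 2. Most passing isl1a:GFP wells have a few reads whatever their depth, the ERCC-rich wells of isl1a:GFP plate 1 have 0 to a few reads, and chx10:GFP wells lie mostly at 0.

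Clustering with the 4 genes held out placed the high wells together. The 622 isl1a:GFP wells formed 7 clusters, of which cluster 1 held 171 wells (75 and 96 on plates 1 and 2), all 155 high wells and 16 wells that were not high. Its other genes of the CSF-cN marker list were present, with 13933 CPM of pkd1l2a, 1243 CPM of TAL1, 485 CPM of GATA2, 243 CPM of GATA3, 2639 CPM of GAD2, 888 and 1468 CPM of a pair of GAD1 copies and 217 CPM of SLC32A1, whereas SST, a somatostatin gene, had 2.19 CPM and pkd1l2b almost none. Cluster 1 was picked as the cluster with the most wells high for urp1. It was called CSF-contacting-like from these markers, which are a description, since they also took part in the clustering. The name is for the cluster as a whole and does not hold for most of its 16 wells that were not high. Apart from well G11 of plate 1 and wells A7, O14 and K24 of plate 2, these had at most 7.84 CPM of pkd1l2a and 3.92 CPM of GAD2. Well K24 had 204 CPM of pkd1l2a beside 5495 CPM of TPH2. The clusters were rebuilt here, and the study's own clusters were not used. In the study, a pair of the isl1a:GFP clusters without MN identity expressed CSF-cN markers. Here cluster 1 alone held high wells, but not all markers of the list were highest in it. Cluster 4 had 1458 CPM of GATA2 and 1190 CPM of GATA3. How the study's pair of clusters divides the wells of cluster 1 was not tested. Symbols are those of the gene name table, which writes many zebrafish genes with capitals and does not tell some copies apart.

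In the CSF-contacting-like cluster, urp1 had 19446 and 22842 CPM on plates 1 and 2, against 3.48 and 7.15 CPM in the other clusters together. For urp2 the levels were 22014 and 33062 CPM, against 3.20 and 9.02 CPM, and for pkd2l1 11728 and 10991 CPM, against 3.11 and 4.02 CPM. For tal2 they were 816 and 719 CPM, against 3.15 and 8.70 CPM, a smaller fold than for the other genes (259-fold and 82.7-fold, against 2734-fold to 6888-fold). At least 96.8% of the reads of each gene lay in this cluster. As the cluster was picked by its wells high for urp1, these levels and folds are a description. The other clusters lay close together, at 3.95 to 14.1 CPM for urp1, 3.91 to 17.7 CPM for urp2 and 1.95 to 6.69 CPM for pkd2l1, with the highest of each in cluster 6, where well N24 of plate 2 lies. The order among them was not tested.

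The reporter sequence had a median of 2322 CPM in the CSF-contacting-like cluster, against 1101 to 10186 in the other clusters. The gene listed as ISL1 had 98.8 CPM there, against 28.1 to 1785 CPM elsewhere. The wells with the 4 genes were therefore not those with the most reporter or ISL1 reads, and their ISL1 level was among the lower ones.

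Markers of other cell types were low in the high wells, apart from ependymal and oligodendrocyte genes. Of 5 MN genes (MNX1, CHAT, PRPH and a pair of SLC18A3 copies), the summed level was 8.46 and 16.1 CPM in high wells, against 3926 and 4923 CPM in the other passing isl1a:GFP wells, and 1 of them was at 0 on plate 1. The sum of 4 serotonergic genes was 76.7 and 43.1 CPM, against 5287 and 3052 CPM, and that of 5 V2a genes 0.133 and 0.133 CPM, against 39.1 and 47.7 CPM. For 3 genes of ependymal cells (FOXJ1, RSPH9, ENKUR), which bear motile cilia at the central canal, it was 354.3 and 512.7 CPM, against 5.17 and 24.2 CPM, with a range over high wells of 0 to 1857 and 0 to 2547 CPM. The 6 oligodendrocyte genes had 1471 and 1456 CPM, against 1387 and 2846 CPM, with a median of 479 and 264 CPM over high wells, against 592 and 219 CPM over other wells. The part of these in the levels of the 4 genes was not tested.

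The remaining marker lists had low sums in high wells. They were 31.7 and 118 CPM for 8 astroglial genes, against 173 and 302 CPM, and 71.7 and 63.4 CPM for 7 microglial genes, against 281 and 173 CPM. Progenitor genes (5) had 49.96 and 52.57 CPM, against 55.3 and 576 CPM, and 4 glutamatergic genes 2.16 and 6.05 CPM, against 142 and 87.5 CPM. The sums of 5 sensory neuron genes were 0.929 and 0.690 CPM, against 1.53 and 0.997 CPM, and those of 2 red blood cell genes 0 and 0.106 CPM, against 0.0803 and 0.201 CPM.

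**Figure D5:**
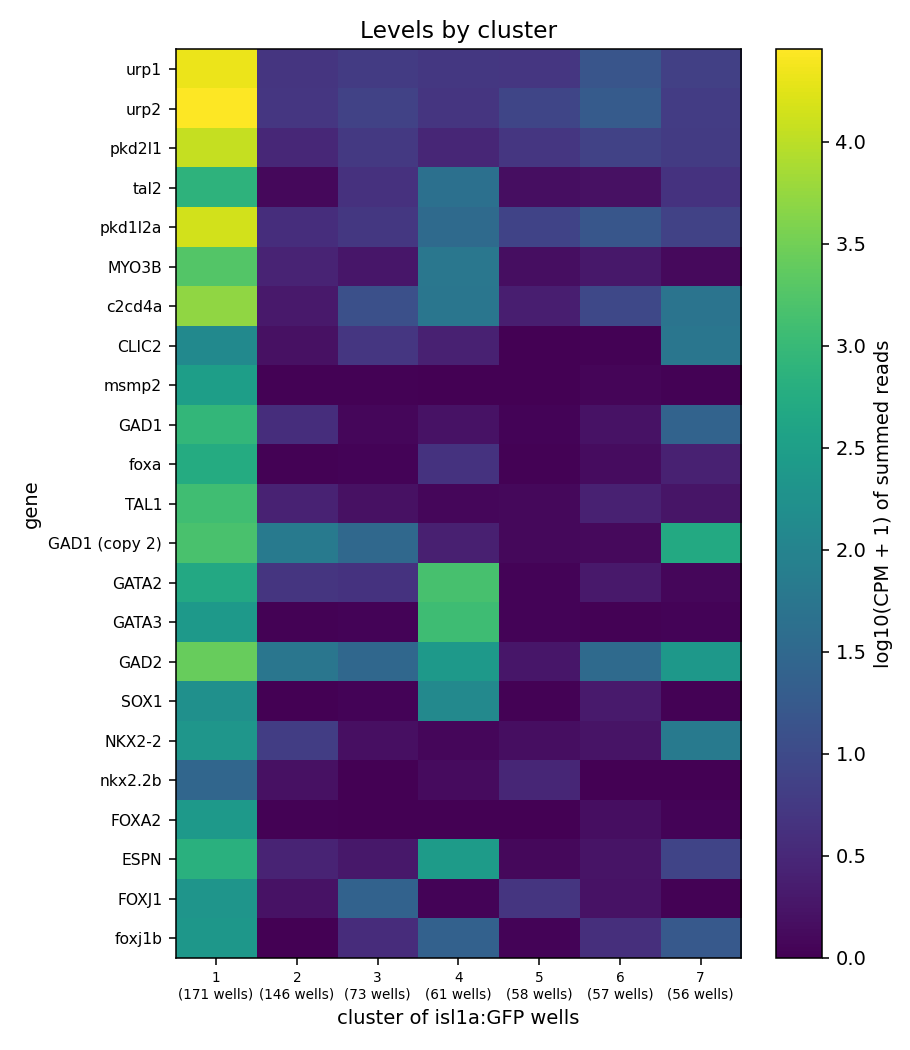
Levels of urp1, urp2, pkd2l1 and tal2, and below them of genes most like them and of CSF-cN genes called higher in isl1a:GFP, as log10(CPM + 1) of the reads summed over the wells of each cluster of isl1a:GFP wells. Cluster 1 (171 wells) is CSF-contacting-like and cluster 4 (61 wells) is serotonergic-like. In cluster 4, tal2, GATA2, GATA3, ESPN, MYO3B and SOX1 are also above the remaining clusters.

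The gene tal2 passed its limit outside the high wells as well. Of the 15 wells that were high for tal2 alone, 10 lay in the serotonergic-like cluster, 4 in the CSF-contacting-like cluster and 1 in cluster 3. In the CSF-contacting-like cluster the median of tal2 was 733 CPM and 94.2% of 171 wells had a read. The 10 wells of the serotonergic-like cluster had 116 to 898 CPM (median 183 CPM), while the median of its other 51 wells was 0 and 7.84% of them had a read. These 10 and 51 wells had 14196 and 20743 CPM of TPH2, 1572 and 1440 CPM of GATA2 and 939 and 1229 CPM of GATA3 (genes of regulators of V2b and CSF-contacting lineages), and 0.306 and 0.188 CPM of TAL1. In the CSF-contacting-like cluster TAL1 had 1243 CPM. As sums over wells, tal2 thus came with TAL1 there and without it in the serotonergic-like cluster. Not every well followed the sums. Wells A7 and C9 of plate 2, in the CSF-contacting-like cluster, had 1880 and 143 CPM of tal2 and 0 CPM of TAL1. In the remaining 390 wells, 8.97% had a read of tal2 and 1 was high.

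A few wells, singled out after their values had been seen, combined tal2 with pkd1l2a but without the peptide genes. Well G11 of plate 1 had 735 CPM of tal2, 735 CPM of pkd2l1 and 2384 CPM of pkd1l2a, with 0 reads of urp1 and 1 of urp2. Well A7 of plate 2 had 1880 CPM of tal2, 307 CPM of pkd2l1, 2079 CPM of pkd1l2a and 5358 CPM of GAD2, with 0 reads of urp1 and 5 of urp2. It was the only well of the CSF-contacting-like cluster with a read of SST, at 309 CPM, among 171 wells. In well O14 of plate 2, tal2 was at 1501 CPM, pkd2l1 at 146 CPM and pkd1l2a at 9820 CPM, with 2 reads of urp1 and 1 of urp2. All 3 wells lay in the CSF-contacting-like cluster. Well O3 of plate 2, in the serotonergic-like cluster, had 898 CPM of tal2, 2020 CPM of pkd1l2a, 4820 CPM of GAD2 and 988 CPM of TPH2, with 2 reads of pkd2l1. The peptide reads of these wells were within the range of the wells that were not high.

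Other genes of CSF-cNs moved with the 4 genes between the lines. The list held 29 genes without pkd2l1 and tal2, of which 27 were tested. Of these, 16 were called higher in isl1a:GFP, 1 lower and 10 in neither direction. Over all rows tested, 2.09% were called higher and 0.952% lower. The list was chosen with earlier results of these data known, so that these counts are a description. The 1 lower call was lost without chx10:GFP plate 1 or without plate 2. The median log2 difference of the 27 was 5.37, against 0.02 over all rows tested. The channel partner gene pkd1l2a had the largest difference of those with reads on every plate, with 4670 and 3416 CPM, against 1.74 and 2.19 CPM (log2 difference 11.03, standard error 0.43, adjusted p = 0.00104).

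Among regulators of the lineage, GATA2 had 313 and 244 CPM in isl1a:GFP, against 0.208 and 0.403 CPM in chx10:GFP (log2 difference 9.84), GATA3 285 and 108 CPM, against 0.208 and 0.847 CPM (8.52), and TAL1 321 and 367 CPM, against 0.874 and 1.32 CPM (8.32). The floor plate and progenitor factor genes FOXA2 (6.68) and NKX2-2 (5.37) were called higher as well. One SOX1 copy, ENSDARG00000008131, had 74.9 and 49.7 CPM, against 0 and 0 CPM, and nkx2.2b 7.92 and 8.67 CPM, against 0 and 0.0168 CPM. For the first of these, and for nkx2.2b, the fitted fold depends on the prior count and is not given. The gene FOXA2 was close to 0 outside the CSF-contacting-like cluster, with 244 and 249 CPM in it, against 0.0546 and 0.135 CPM in the other clusters, while GATA2 had 481 and 488 CPM, against 241 and 156 CPM. The serotonergic-like cluster held more of both GATA genes than the CSF-contacting-like cluster, with 1458 CPM of GATA2, against 485 CPM, and 1190 CPM of GATA3, against 243 CPM, so that the differences between the lines for these genes include its wells.

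Of the genes of GABA synthesis and transport, the GAD1 copies differed by 5.26 (ENSDARG00000027419) and 6.74 (ENSDARG00000093411) on the log2 scale and GAD2 by 6.91. The vesicular transporter gene SLC32A1 was at 70.8 and 68.7 CPM, against 2.05 and 13.9 CPM, and did not pass (3.14, adjusted p = 0.120), while it passed without chx10:GFP plate 2 (5.13, adjusted p = 0.0106), with the replicate block (3.72, adjusted p = 0.0318), without a filter on low counts and in DESeq2.

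Genes of the apical process and cilium were called higher too. They were MYO3B, an unconventional myosin of actin protrusions, with 750 and 355 CPM, against 0.177 and 1.38 CPM (log2 difference 9.46), ESPN, an actin bundling protein, with 276.0 and 174.4 CPM, against 0.198 and 0.419 CPM (9.51), and the motile cilia regulators FOXJ1 (5.84) and foxj1b (5.94). CRB1, of an apical polarity complex, had a difference of 3.30 and missed the threshold (adjusted p = 0.0502, and 0.0426 with the replicate block). These genes also belong to other ciliated or sensory cells. In the CSF-contacting-like cluster FOXJ1 had 144 and 262 CPM, against 0.519 and 7.46 CPM in the other clusters. For ESPN the levels were 792 and 582 CPM, against 53.0 and 26.6 CPM. The serotonergic-like cluster held 273 CPM of ESPN and 56.2 CPM of MYO3B, so that the differences between the lines for both include its wells.

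Unlike urp1 and urp2, the other genes tested of the urotensin list were not called between the lines by edgeR. These 6 genes include sspo and a corticotropin releasing hormone gene, which are not urotensin genes. With 2.09% of all rows called higher and 0.952% lower, 0 calls among 6 genes is near the share over all rows. Of 9 genes listed with urp1 and urp2, 6 were tested and 0 were called by edgeR at an adjusted p under 0.05 (3 higher at an unadjusted p under 0.05, and 3 higher by DESeq2), with a median log2 difference of 1.31. The nearest was UTS2, a urotensin II gene, with 69.0 and 9.11 CPM in isl1a:GFP, against 1.30 and 1.28 CPM in chx10:GFP (4.91, standard error 0.95, adjusted p = 0.0519), and next was uts2d, with 37.2 and 19.5 CPM, against 7.39 and 3.02 CPM (2.47, adjusted p = 0.0830). Both passed with plates of the same number paired in a replicate block (UTS2 4.31, adjusted p = 0.0277, and uts2d 2.54, adjusted p = 0.0201), and UTS2 also without isl1a:GFP plate 2 (5.71, adjusted p = 0.00183). Their reads lay outside the CSF-contacting-like cluster, with 1.01 and 0.395 CPM of UTS2 in it, against 98.4 and 12.3 CPM in the other clusters, and 0.0316 and 0.511 CPM of uts2d, against 53.2 and 26.4 CPM. Few wells carried them, and a single well of cluster 7 had 8000 CPM of UTS2. The receptor gene uts2r4 had 0 reads everywhere, and uts2r3 had 0 reads in the CSF-contacting-like cluster, against 3.71 and 0.631 CPM in the other clusters. sspo, which encodes the Reissner fibre protein SCO-spondin, averaged 5.37 and 7.08 CPM there, against 0.915 and 0.311 CPM in the other clusters, with a read in 6.43% of 171 and 4.66% of 451 wells.

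The genes whose levels ran most like the 4 genes over isl1a:GFP wells were mostly of the same list. Likeness was the smaller of the Pearson correlations of both plates (259 and 363 wells) between log2(CPM + 1) of a gene and the mean z-score of the 4 genes, over 15269 rows. Among the 10 highest were pkd1l2a (0.955), MYO3B (0.943), c2cd4a (0.935), CLIC2 (0.926), msmp2 (0.905), GAD1 (0.902), foxa (0.892), TAL1 (0.886) and the other GAD1 copy (0.876), and the next gene had 0.835. The 4 genes themselves, which are part of the score, had 0.937 to 0.978. As the wells fall into a high group and the rest, these values mostly measure that split. In the CSF-contacting-like cluster c2cd4a had 4577 and 5455 CPM, against 10.7 and 20.0 CPM in the other clusters, msmp2 306 and 319 CPM, against 0.0137 and 0.0925 CPM, and foxa, a forkhead gene, 575 and 514 CPM, against 0.410 and 0.959 CPM.

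Genes of the caudal cord were used to look for a difference along the body axis. Of 6 hox13 genes tested, 0 were called between the lines by edgeR (0 higher and 1 lower at an unadjusted p under 0.05, and 1 lower by DESeq2), with a median log2 difference of -0.10. With 3.04% of all rows called in either direction, 0 of 6 hox13 genes is near the share over all rows. On each isl1a:GFP plate 14 high wells had at least 20 CPM of these genes and 57 and 70 had less. Median levels in the 14 wells with hox13 reads, set against the others, were 13865 and 18290 CPM, against 17158 and 26949 CPM, for urp1, 10732 and 20249 CPM, against 11082 and 23970 CPM, for urp2, and 809 and 633 CPM, against 793 and 716 CPM, for tal2. For pkd2l1 they were 12153 and 9801 CPM, against 12129 and 13194 CPM. The median log2 ratio of urp1 to urp2 was 0.44 and -0.02, against 0.89 and -0.14, so that the direction differed between the plates for the ratio, and for each gene the wells of both kinds overlapped.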

How the data were processed

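Per the labels and the methods of the study, the authors mapped Smart-seq2 reads to GRCz11 with STAR (2.5.3a) and kept uniquely mapped reads. The deposited values are raw read counts per gene and well, not normalized, for 32519 gene rows, 92 ERCC rows and 1 reporter row. The counting program is not given in the sources used here. The 4 genes, the limits for high wells and the gene lists were chosen with earlier results of these data known.

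The study's own limits on gene rows and ERCC selected the wells, doublets were not called since single cells were sorted, and failing wells were used for the background only. Gene rows were summed per plate and tested with edgeR (4.0.16, R 4.3.3; TMM, quasi-likelihood test, no block, Benjamini-Hochberg over 23956 rows, threshold 0.05). The biological coefficient of variation was 0.664 with 2 residual degrees of freedom. Tested on simulated data for this comparison (24118 rows), the fit recovered 0% of 4-fold, 30% of 16-fold, 96% of 64-fold and 100% of 1024-fold changes, so that smaller changes were mostly missed. Clusters came from Seurat (5.3.0; 2000 variable genes without the 4 genes, 30 anchor dimensions, 10 components, resolution 0.6), and other computations from Python (3.11.15), numpy (2.4.6) and scipy (1.17.1). Ratios used a pseudocount of 1 read and likeness log2(CPM + 1).

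Genes named are the 4 genes, those of the CSF-cN list (30 of 30 symbols found, 31 genes) and the urotensin list (11 of 14 symbols found), and the 10 rows with the highest likeness among rows detected in at least 10 passing wells on each isl1a:GFP plate. The caudal list (6 of 6 symbols) and marker lists are given as sums or counts. Some listed genes enter counts and sums only and are not reported here by name. Symbols came from a name table keyed by Ensembl identifier. No coordinates or sequences are given, as no genome of the build of the files was used here. Alternatives were DESeq2 (1.42.0), no filter, total counts, a replicate block, leaving out each plate, all wells or thinned wells, other limits, and other clusterings.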

Additional observations from a re-analysis of the deposited data

Results flagged for a closer look

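A pair of failing wells of isl1a:GFP plate 1, which the comparison of the passing wells left out, held urp1, urp2 and pkd2l1 above every chx10:GFP well. For tal2 their 222 and 131 CPM were below the highest chx10:GFP well, at 257 CPM. They were above every chx10:GFP well that was not high, since those had less than 100 CPM. Well C15 had 288 reads of urp1, 164 of urp2, 159 of pkd2l1 and 13 of tal2 among 58512 gene reads, which is 4922, 2803, 2717 and 222 CPM. Well G6 of that plate had 721 reads of urp1, 5383 of urp2, 514 of pkd2l1 and 11 of tal2 among 84154 gene reads, which is 8568, 63966, 6108 and 131 CPM. Both failed because more than 9000 gene rows were detected, 11749 in C15 and 10966 in G6, at 0.761% and 0.554% ERCC reads. By CPM both would count as high wells. Whether they held more than 1 cell was not tested.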

How the results depend on the processing

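The number of rows called between isl1a:GFP and chx10:GFP (500 higher, 228 lower) was 1813 and 1184 in DESeq2, 821 and 396 without a filter, and 753 and 401 with plates of the same number paired in a replicate block. The deviations of same-numbered plates had a correlation of 0.0991 over genes. The labels do not say that a number is shared between the lines, and whether same-numbered plates were handled together was not tested. Leaving out 1 plate gave 310 to 673 rows higher and 97 to 423 lower, the lowest without chx10:GFP plate 1 (310 higher, 113 lower) and plate 2 (97 lower) and the highest without isl1a:GFP plate 1 (673 and 423). All 4 genes kept their call under each of these, with log2 differences of 12.43 to 15.70 for urp1, 14.14 to 16.08 for urp2, 11.24 to 12.39 for pkd2l1 and 6.07 to 7.59 for tal2 with 1 plate left out. With the replicate block they were 13.74, 14.96, 11.81 and 6.83. The 1 lower gene of the CSF-cN list became 3 in DESeq2 and 0 to 1 with a plate left out. The 0 higher genes of the urotensin list became 3 in DESeq2, 2 without a filter, 1 without TMM factors and 2 with the replicate block. The 0 lower caudal genes became 1 in DESeq2. The cause of these shifts was not tested. With limits divided by 3, tal2 was high in 11 and 4 wells of chx10:GFP plates 1 and 2, against 5 and 0, and with limits 3 times higher in 0 wells of plate 1. The mean background of isl1a:GFP wells was 597, 1016, 478 and 17.1 CPM for urp1, urp2, pkd2l1 and tal2 in failing wells, which hold few reads and include wells C15 and G6 of plate 1. Below the limits divided by 3 it was 3.11 CPM for pkd2l1 and 0.287 CPM for tal2, and as a median 1.03 and 0 CPM. In chx10:GFP wells it was 1.48 CPM for urp1, 2.77 CPM for pkd2l1 and 0 for tal2 in failing wells, 0.527 CPM for tal2 below the limits divided by 3, and 0 for all 4 as a median. Thinning moved the mean share of wells with a read to 70.9% for urp1 and 57.5% for pkd2l1 in isl1a:GFP, and 1.24% and 2.14% in chx10:GFP. Values of single genes other than the 4 were counted only for genes that were called or came nearest to the threshold in the main fit. Of these values, 291 kept their direction and side of the threshold, 19 passed it and 2 were lost. Named genes further from the threshold did not enter this count. The wells and levels of the CSF-contacting-like cluster kept within the spread of the plates in each other clustering (171 to 173 wells, 154 or 155 of them high). With 2 plates a line, most 16-fold changes went uncalled on simulated data.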

Other observations

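Which genes ran with the ratio of urp1 to urp2 reads was looked at in the high wells only, over 3614 rows, and the genes below were chosen by their values. Spearman's rho was taken per plate over 71 and 84 wells, which share the pool and library of their plate, rows were ranked by the weaker of both plates, and the median of all rows was -0.01 and -0.02. The 8 rows with the highest positive rho, that is higher levels in wells with relatively more urp1, were HSPA2 (0.41 and 0.46), JUN (0.45 and 0.37), JUNB (0.38 and 0.37), FOSB (0.33 and 0.33), egr4 (0.32 and 0.43), hsp70.1 (0.37 and 0.32), fthl27 (0.31 and 0.31) and egr1 (0.42 and 0.30).

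The 8 rows with the lowest rho, that is higher levels in wells with relatively more urp2, were msmp2 (-0.45 and -0.45), ptprna (-0.39 and -0.46), JMJD1C (-0.41 and -0.39), tpm3 (-0.44 and -0.36), SCG5 (-0.34 and -0.35), zgc:153704 (-0.35 and -0.34), PAM (-0.46 and -0.33) and si:dkey-175g6.2 (-0.37 and -0.32). The levels over the high wells of plates 1 and 2 were 2733 and 3243 CPM for JUN, 980 and 1201 CPM for PAM, and 321 and 365 CPM for msmp2. No list of genes was tested, and what lies behind these values was not tested.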
